A study of Arabidopsis thaliana with 6 samples.

Results

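Pectin methylesterases are wall enzymes that remove methyl esters from homogalacturonan, the main backbone of pectin. The freed carboxyl groups can bind calcium and stiffen the gel, or make the backbone open to polygalacturonases and pectate lyases. In Arabidopsis the family is large, its activity is restrained by inhibitor proteins, and single members are known for roles in pollen tube growth, in embryo and seed coat walls and in organ growth. The genes described here are 10 loci of the family, AT3G60730, AT2G26450, AT3G17060, AT5G07410, AT5G07420, AT5G07430, AT5G19730, AT2G36700, AT2G36710 and AT5G47500. A locus counted as measured if the array's annotation paired at least 1 probe set with that locus and no other, which held for 8 of the 10, out of 13355 genes measured in this way. Where a locus has several such probe sets, the one to use is chosen by brightness, its mean over the 6 arrays, but each of the 8 had exactly 1. AT5G07410 is named only on a probe set it shares with PPME1, and AT5G47500, which the gene table names PME5, has no probe set listed. Both are unmeasured here.

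Transcripts were measured in dry seeds of Arabidopsis thaliana, in the wild-type accession Col and in hda9-1, a T-DNA insertion mutant of HISTONE DEACETYLASE 9 (HDA9), an enzyme that takes acetyl groups off histones, with 3 biological replicates of each genotype on Affymetrix ATH1 arrays. Ripe siliques were harvested at 18 to 19 days after pollination, each replicate pooled siliques of several plants, and the soil-grown plants had 16 h days at 22 °C and 8 h nights at 16 °C. The mutant is represented by a single allele, with no second allele or complemented line among these samples. On the starting material the sources differ, with dry seeds in the sample labels and dry siliques in the series' design text. In bulk tissue of this kind, fewer cells of a type and less RNA per cell cannot be told apart. Values are log2 expression per probe set, levels are compared between arrays for the same probe set only, and changes are hda9-1 minus Col. A gene is said to have fallen or risen if its limma p-value was under 0.05 after Benjamini-Hochberg adjustment across the 22746 probe sets tested. The 10 loci were selected with the changes between these same 6 arrays already known, so their share of calls is a description of these genes and is not set in a test against the rest of the family.

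Array medians ranged from 5.41 to 5.46, and Pearson's r across probe sets was 0.982 to 0.990 between genotypes and 0.989 to 0.993 within them. Col replicate 3 stood apart in RNA quality, with a 3′ excess of 1.58 log2 units for actin, where Col replicates 1 and 2 had 0.96 and 1.03 and the mutant arrays 1.17 to 1.28. The part of this difference in the results was not tested. For the pectin methylesterases and the other pectin lists, calls that change without Col replicate 3 are named with the genes. Markers outside those lists and the genes most similar to AT3G60730 were not refitted without that array. HDA9 had no probe set listed, so the genotype labels were not checked against its transcript. Of the mature seed markers listed, 3 of 13 were measured. The vicilin-like gene PAP85 read 14.16 to 14.28 in all 6 arrays, near the top of the range of 2.58 to 14.94, and the cupin genes AT2G28490 and AT4G36700 were at 0.08 (adjusted p = 0.734) and −0.80 (limma adjusted p = 0.0297). The mean of the 3 was 12.79 to 12.88 in Col and lower, 12.51 to 12.71, in hda9-1. Only AT4G36700 had a negative change, PAP85 being at 0.02, so the lower mean came from that gene. The part of this shift in the pectin methylesterase values was not tested.

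Of the 8 measured pectin methylesterase genes, 4 fell in hda9-1 seeds and none rose. They were AT3G60730 (3.25-fold lower), AT2G26450 (2.06-fold lower), AT5G07430 (1.87-fold lower) and AT5G07420 (1.46-fold lower). Over all tested probe sets 2.45% fell and 1.37% rose. All 8 changes were negative, with a median of −0.72 on the log2 scale, whereas 51.2% of all probe sets had a negative change and their median was −0.00. In 7 of the 8 genes every hda9-1 array read below every Col array, which was the case for 12.1% of all probe sets. The exception was AT2G36710.

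**Figure D1:**
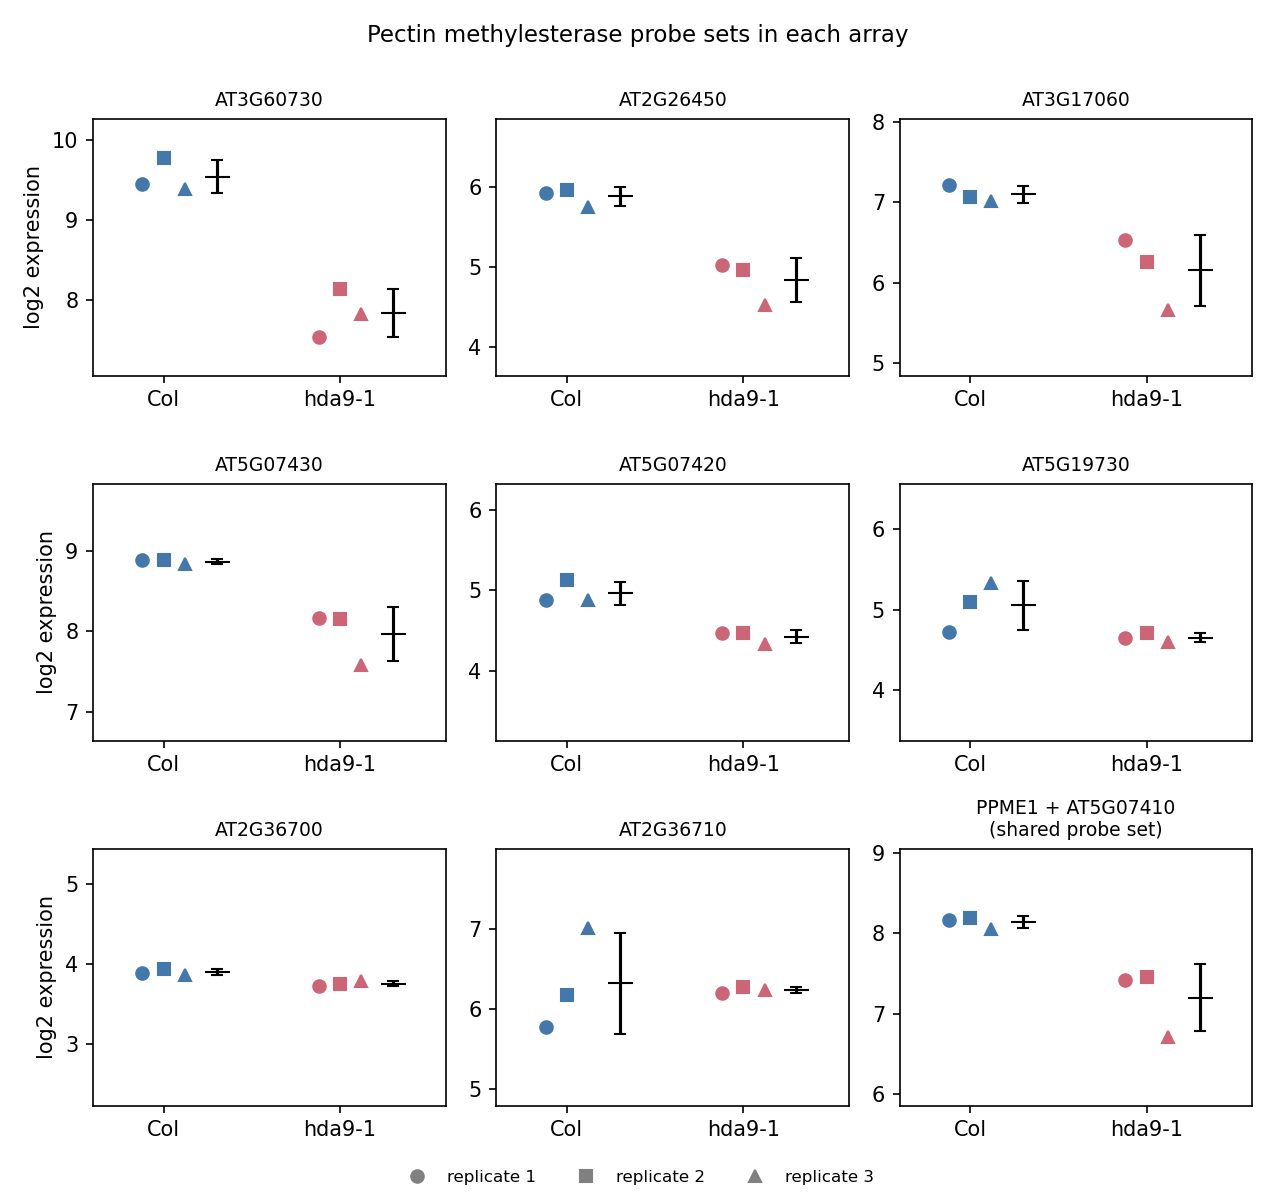
Log2 expression of the 8 measured pectin methylesterase genes and of the probe set shared by PPME1 and AT5G07410 in each array (symbols mark the replicate number, the bar beside each group is the mean ± SD, n = 3). Every panel spans the same number of log2 units; the hda9-1 arrays lie below the Col arrays in all panels except AT2G36710, where Col replicate 3 reads 7.01.

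AT3G60730 had the largest change of the 8. It read 9.45, 9.77 and 9.39 in Col replicates 1 to 3 and 7.55, 8.14 and 7.83 in hda9-1 replicates 1 to 3. The lowest Col array stood 1.25 log2 units above the highest hda9-1 array, a wide gap compared with the spread within either genotype (SD 0.21 in Col and 0.30 in hda9-1, n = 3 each). The log2 change was −1.70 (SE 0.17, 95% interval −2.10 to −1.30, limma adjusted p = 0.00764), and the gene passed in each of the 13 other settings tried, including the 6 fits that each left out 1 array, with adjusted p-values from 0.00274 to 0.0452.

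Over the 6 arrays the 3 genes with the most similar profile to AT3G60730, among 13354 others, were AT1G70550 (Pearson's r = 0.998), AT1G53000, named CKS in the gene table (r = 0.997), and IAA30, which encodes a repressor of auxin responses (r = 0.993). The difference between genotypes, which all of them share, sets most of these values, and after subtracting the genotype means r was 0.960, 0.975 and 0.934. As the 3 genes were picked for their r over the same 6 arrays, that choice also partly sets the remaining r. CKS is known as the enzyme that activates the sugar Kdo for rhamnogalacturonan II, a pectin domain. Its log2 values were 8.03, 8.18 and 8.06 in Col and 7.49, 7.69 and 7.60 in hda9-1, so that the second replicate was the highest in both genotypes, as in AT3G60730. The CKS change was −0.50 (SE 0.10, limma adjusted p = 0.0374).

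AT2G26450 had the second largest change among the genes that fell. Its log2 values were 5.93, 5.97 and 5.75 in Col and 5.03, 4.96 and 4.52 in hda9-1, with no overlap. The change was −1.04 (SE 0.15, 95% interval −1.38 to −0.70, limma adjusted p = 0.0152). The call was lost without Col replicate 1 (−1.02, adjusted p = 0.0694) and without hda9-1 replicate 2 (−1.10, adjusted p = 0.0559), in both cases with nearly the same change. Its neighbour in gene order, AT2G26440, for which the gene table gives the synonym PME12, had no probe set of its own.

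AT3G17060 narrowly missed the threshold. It read 7.22, 7.07 and 7.01 in Col and 6.54, 6.26 and 5.66 in hda9-1. The genotypes did not overlap, but the mutant arrays were spread over a range wider than that of the Col arrays (SD 0.45 against 0.10, n = 3 each). The change was −0.95 (SE 0.21, 95% interval −1.43 to −0.47, 1.93-fold lower) with a limma adjusted p of 0.0519, and with the replicate number as a block the adjusted p was 0.0242.

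AT5G07410, AT5G07420 and AT5G07430 follow each other on chromosome 5 with no other protein-coding gene between them in the gene table. AT5G07430 read 8.89, 8.89 and 8.84 in Col and 8.17, 8.16 and 7.58 in hda9-1. Its Col arrays were the tightest of the 8 genes (SD 0.03, n = 3), and the change was −0.90 (SE 0.16, 95% interval −1.28 to −0.53, limma adjusted p = 0.0306). AT5G07420, in the middle of the run, read 4.88, 5.12 and 4.88 in Col and 4.47, 4.46 and 4.32 in hda9-1, a change of −0.54 (SE 0.10, 95% interval −0.78 to −0.30, limma adjusted p = 0.0367).

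The probe set shared by AT5G07410 and PPME1, a pectin methylesterase known for its action in pollen tubes, cannot say which of both genes it reports. It read 8.17, 8.19 and 8.05 in Col and 7.42, 7.45 and 6.71 in hda9-1, again without overlap. The change was −0.94 (SE 0.19, 95% interval −1.39 to −0.49, limma adjusted p = 0.0443). The genes that flank the run were AT5G07400, with a change of 0.01 (SE 0.10), and GDH2, a glutamate dehydrogenase gene, which had no probe set of its own. These 3 calls were lost in most of the fits that left out 1 array, whichever genotype it came from. AT5G07420 passed in none of the 6 fits with 1 array left out (changes −0.58 to −0.46, adjusted p 0.0534 to 0.111), and AT5G07430 passed only without hda9-1 replicate 3 (−0.71, adjusted p = 0.0368), with adjusted p-values of 0.0536 to 0.111 in the other 5. The shared probe set also passed only without that array, with adjusted p-values of 0.0764 to 0.141 in the other 5.

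The other 3 measured genes did not pass either. AT5G19730 read 4.73, 5.10 and 5.33 in Col and 4.65, 4.71 and 4.60 in hda9-1, where the highest mutant array lay 0.015 below the lowest Col array. Its change was −0.40 (SE 0.15, 95% interval −0.75 to −0.05, limma adjusted p = 0.202), or −0.26 without Col replicate 3. The remaining pair, AT2G36700 and AT2G36710, are neighbours on chromosome 2.

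AT2G36700 read 3.89, 3.94 and 3.86 in Col and 3.72, 3.75 and 3.78 in hda9-1. These values lie close to or below the lower quartile of the arrays (3.86 to 3.96), where RMA compresses differences. The change was −0.15 (SE 0.08, 95% interval −0.34 to 0.04, limma adjusted p = 0.403). AT2G36710 read 5.77, 6.18 and 7.01 in Col and 6.20, 6.27 and 6.24 in hda9-1, so that the mutant arrays fell inside the range of the Col arrays. Its change was −0.08 (SE 0.27, 95% interval −0.72 to 0.55, limma adjusted p = 0.921), and it turned to 0.26 (adjusted p = 0.378) without Col replicate 3, the highest of the 6 arrays for this gene. Of the 14 other genes next to any of the 10 loci in gene order, 5 were measured, with changes from −0.17 to 0.39, and none passed.

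In both genotypes the array numbered 3 was often the lowest. Col replicate 3 read lowest of the 3 Col arrays in 6 of the 8 genes, against 34.8% of all tested probe sets. hda9-1 replicate 3 read lowest of the 3 hda9-1 arrays in 5 of the 8 genes, whereas it was lowest for 27.2% of all tested probe sets. It stood 0.73 log2 units below the mean of the other 2 mutant arrays for AT3G17060, 0.58 for AT5G07430, 0.47 for AT2G26450 and 0.72 for the shared PPME1 probe set. For AT3G60730 the same array lay only 0.02 below that mean. Over all probe sets the central 90% of such deviations ran from −0.38 to 0.37. Without hda9-1 replicate 3, AT3G60730, AT2G26450 and AT5G07430 passed, with changes of −1.69, −0.89 and −0.71, so these 3 calls did not rest on that array. With it the changes of AT2G26450 and AT5G07430 were larger, −1.04 and −0.90. AT5G07420 did not pass without it (−0.49, limma adjusted p = 0.111).

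The calls depended on which arrays entered the fit. Leaving out Col replicate 1 left 1 fallen gene among the 8, as did leaving out hda9-1 replicate 2. Over all 22746 probe sets, 70 and 69 fell in those fits, against 558 as reported. The number among the 8 was 2 without Col replicate 2 or 3, where 452 and 402 of all probe sets fell. It was 3 without hda9-1 replicate 1 or 3, where 237 and 198 fell. Without hda9-1 replicate 1 the 3 were 2 of the reported genes and AT3G17060 (adjusted p = 0.0453). No gene of the 8 rose in any setting. The values are shown setting by setting in the plot of changes under each setting.

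**Figure D2:**
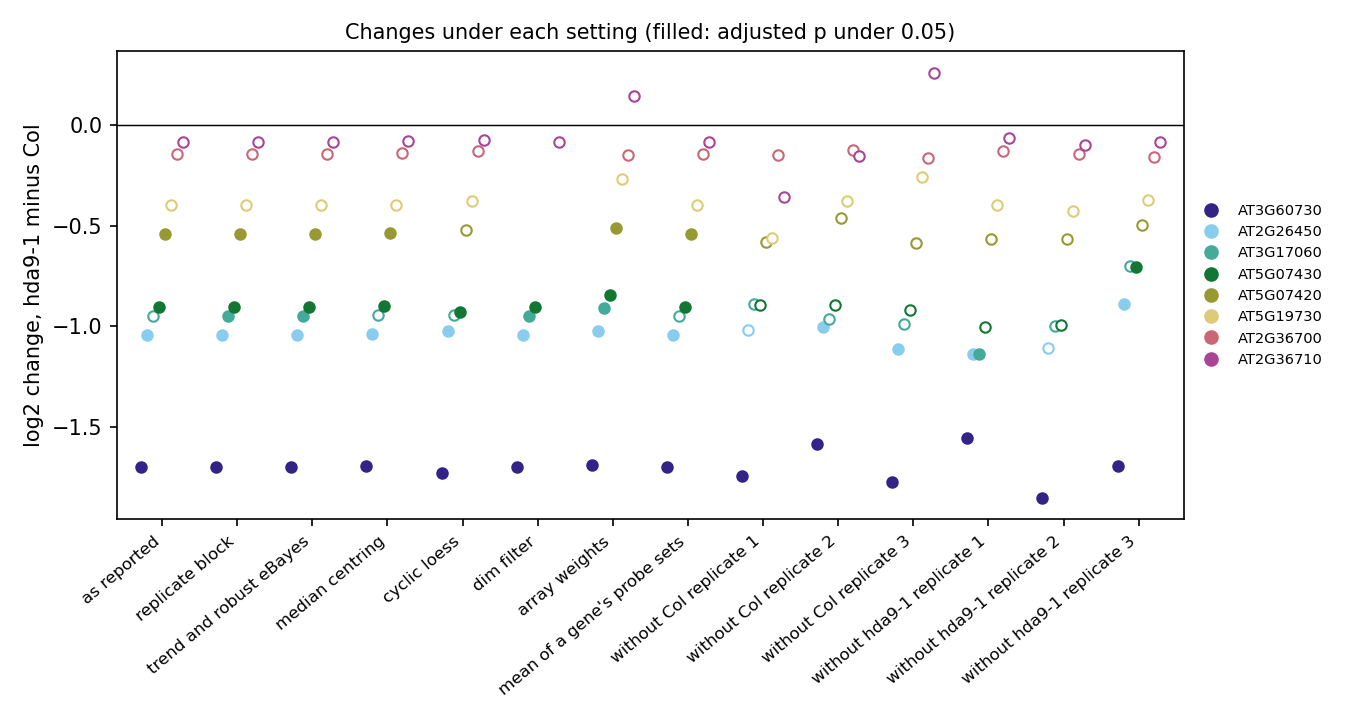
Log2 change (hda9-1 minus Col) of the 8 measured pectin methylesterase genes under the reported fit and 13 other settings; filled points have a limma adjusted p under 0.05, and genes removed by the filter on dim probe sets have no point there. AT3G60730 is filled in every setting, and AT2G36710 alone crosses 0, with array weights and without Col replicate 3.

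Other pectin methylesterases were measured through 37 of 57 further loci that a list from general knowledge names. Of these, 3 fell and none rose, and their median change was −0.06 with 26 negative and 11 positive values. Most of the 37 were dim, with a mean under 5. AT3G05610 read 6.69, 6.82 and 6.88 in Col and 5.93, 5.88 and 5.14 in hda9-1, a change of −1.15 (SE 0.20, limma adjusted p = 0.0301). AT5G09760 (−0.71, SE 0.14, adjusted p = 0.0406) and AT5G27870 (−0.59, SE 0.12, adjusted p = 0.0386) were the other 2. Without Col replicate 3 none of these 3 passed (adjusted p 0.0683 to 0.0816). For AT3G05610 too, hda9-1 replicate 3 was low, 0.76 below the mean of the other 2 mutant arrays.

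Large changes in this part of the family that did not pass came with a wide spread. AT2G47550 read 7.19, 6.73 and 8.07 in Col and 4.86, 6.32 and 6.14 in hda9-1, a change of −1.55 (SE 0.44, 95% interval −2.59 to −0.52, adjusted p = 0.105). AT5G51490 had a change of −1.29 (SE 0.32, adjusted p = 0.0732), and it passed with the replicate number as a block (adjusted p = 0.0112) and without Col replicate 3 (adjusted p = 0.0377). The largest positive value belonged to PME61 (0.40, SE 0.14, adjusted p = 0.164). Of members known from seeds, picked here after their values were seen, AT1G23200 (HMS), which acts in embryo walls, was at −0.13 (95% interval −0.57 to 0.31), and AT5G49180 (PME58), of seed coat mucilage, was at 0.15 (95% interval −0.11 to 0.40). PME58 read only 3.48 to 3.91, close to or below the lower quartile of the arrays.

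**Figure D3:**
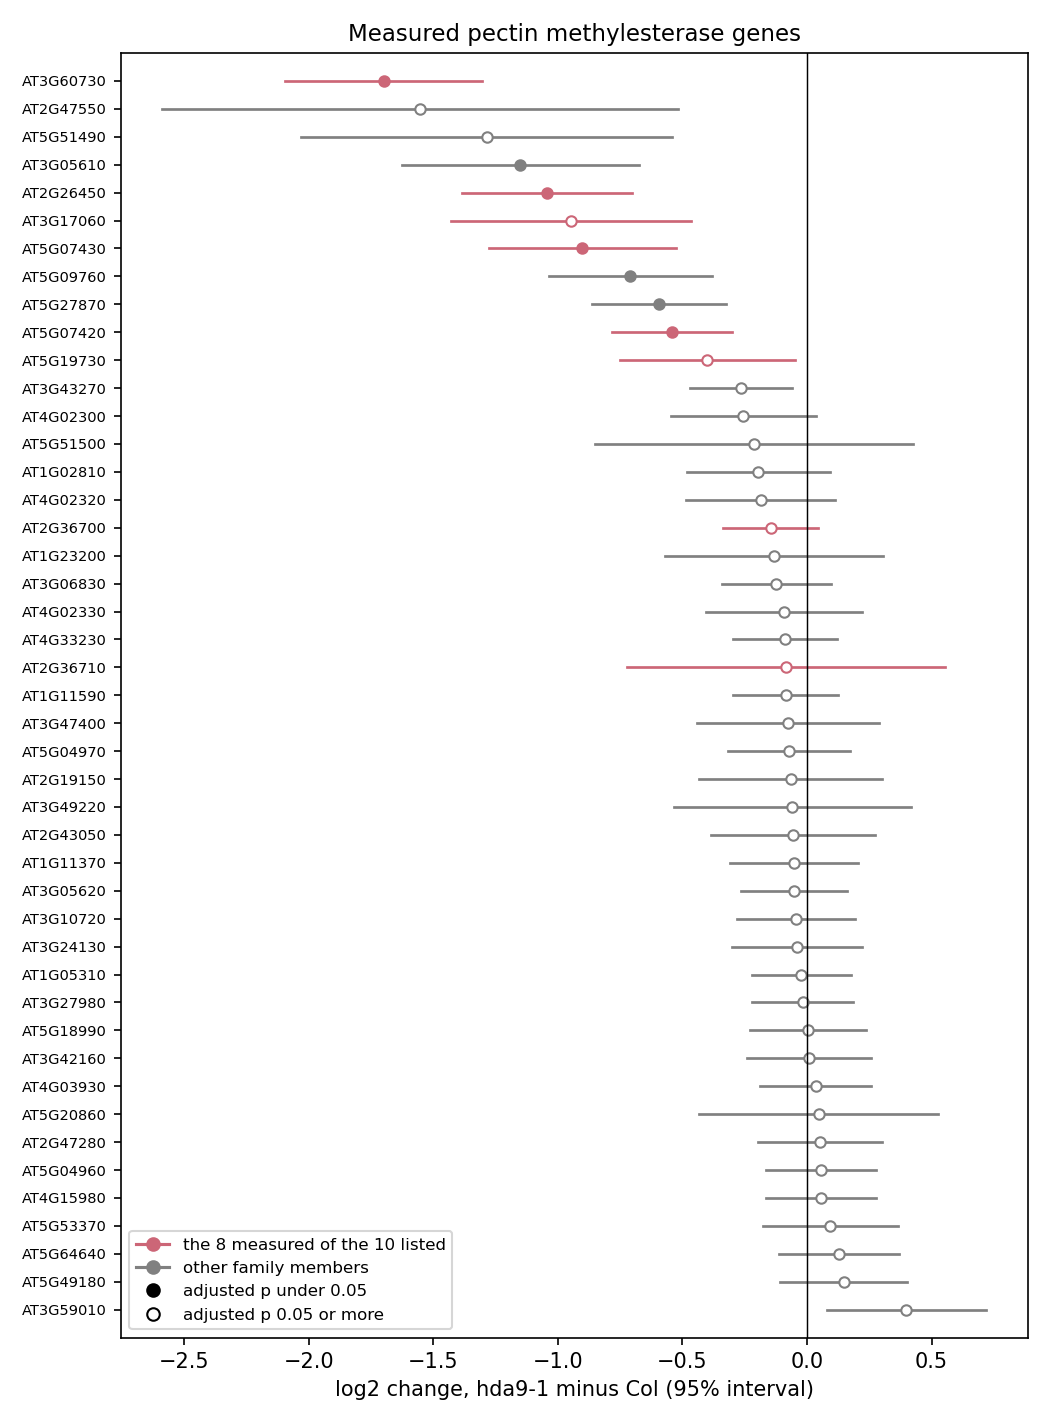
Log2 change (hda9-1 minus Col) with its 95% interval for the 45 measured pectin methylesterase genes, the 8 described here in red and 37 others in grey; filled points have a limma adjusted p under 0.05. The 7 filled genes are all negative, from −1.70 for AT3G60730 to −0.54 for AT5G07420, and most of the others, many of them dim, lie near 0.

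Inhibitors of pectin methylesterases, which bind the enzyme and block it, were measured through 14 of 25 listed loci, and 1 fell. AT3G62820 read 7.88, 7.61 and 7.46 in Col and 6.89, 6.76 and 6.67 in hda9-1, a change of −0.88 (SE 0.13, limma adjusted p = 0.0163). AT1G62760 was at −1.38 (SE 0.45, adjusted p = 0.145) with overlapping genotypes, and its adjusted p was 0.0103 with the replicate number as a block. It has 2 probe sets, and their mean changed less (−0.70, adjusted p = 0.179). AT2G01610 was at −0.55 (SE 0.22, adjusted p = 0.223), or −0.36 without hda9-1 replicate 2. AT1G14890 was the inhibitor gene with the largest positive value, 0.42 (SE 0.11, adjusted p = 0.0769), and its adjusted p was 0.0469 with the block. It was dim, with Col arrays at 3.53 to 3.76, below the lower quartile of the arrays. The median of the list was −0.06.

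Genes that make or methylate homogalacturonan were barely covered, with 2 of 19 measured. GAUT15, of the galacturonosyltransferase family, was at −0.34 (SE 0.14, adjusted p = 0.251), or −0.19 without Col replicate 3, and AT3G49720 (CGR2), of pectin methylation in the Golgi, was at 0.14 (SE 0.11, adjusted p = 0.575), or 0.23 without hda9-1 replicate 1. None of 6 measured pectin acetylesterase genes passed, with AT1G57590 at 0.59 (SE 0.22, adjusted p = 0.204), or 0.31 without hda9-1 replicate 1, its highest array. Of the enzymes that cut de-esterified pectin, 1 of 3 measured polygalacturonase genes fell, ADPG1, known from silique opening (−0.51, SE 0.10, limma adjusted p = 0.0399, or 0.0791 without Col replicate 3).

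Of 22 measured pectate lyase genes, 4 fell, AT2G02720 (−1.13), AT59 (AT1G14420, −1.02), AT3G01270 (−0.87) and AT5G15110 (−0.74), with limma adjusted p-values from 0.0127 to 0.0322. Of the 4, AT3G01270 did not pass without Col replicate 3 (adjusted p = 0.0647). Their list median was −0.03, so most of that list lay near 0, as in the pectin methylesterases outside the 8. Over all 84 measured genes of these lists, 9 fell and none rose, while 2.45% of all tested probe sets fell and 1.37% rose. Many of the 84 were dim, and the filter on probe sets with a mean under 5 left 18 of them and 5 of the 8. Of those 18, 8 fell, against 550 of the 12501 probe sets that the filter left. None of the 84 passed in the fit that left out Col replicate 1 or in the one that left out hda9-1 replicate 2. In those fits falls over all probe sets were down from 558 to 70 and 69. Leaving out hda9-1 replicate 3 gave 3 calls among the 84. Leaving out Col replicate 3 gave 5 calls, as did leaving out hda9-1 replicate 1.

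**Figure D4:**
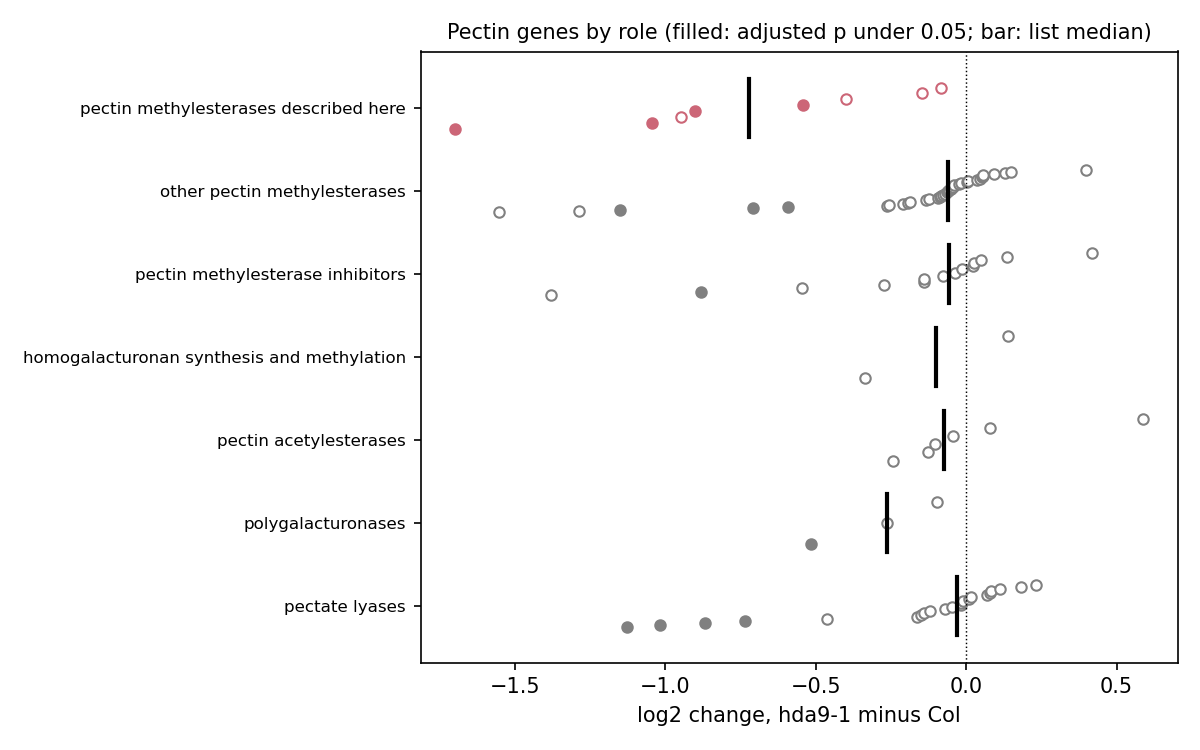
Log2 change (hda9-1 minus Col) of measured pectin genes by role, with 1 point per gene, filled where the limma adjusted p was under 0.05, and a bar at each list's median. The median is −0.72 for the 8 pectin methylesterases described here and lies between −0.26 and −0.03 for the other lists.

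Several of these enzymes are known from pollen in other work, and markers of pollen and of other tissues were therefore read beside them. Of the pollen markers, 9 of 27 were measured and 1 fell, the pollen tube receptor kinase gene AT4G39110 (BUPS1), from 5.64 ± 0.08 to 4.89 ± 0.07 (SD, n = 3 each; −0.75, limma adjusted p = 0.0113). Of the 9, 5 had a negative and 4 a positive change, and their median was −0.08. AT2G21480 was at −0.37 (adjusted p = 0.242) and TUA1, a tubulin gene of pollen, at −0.25 (adjusted p = 0.240). AGL104, a MADS-box gene of pollen, was at 0.17 (adjusted p = 0.605) and ACT12, a pollen actin gene, at 0.05 (adjusted p = 0.838). The Col means of AGL104 and ACT12, 3.86 and 3.69, were close to or below the lower quartile of the arrays. AGL65 was brighter, with a Col mean of 6.09, and was at 0.01. The remaining markers were AGL66 at 0.03, ANX1 at −0.08 and ANX2 at −0.18. BUPS1 had the largest change of the 9. The mean of the 9 pollen markers was 4.82 to 4.97 in Col and, nearly adjoining, 4.70 to 4.82 in hda9-1. The part of pollen transcripts in the falls was not tested.

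For the silique wall, 2 of 10 markers were measured, and they went opposite ways. ADPG1 fell, as given above, and ALC, a regulator of valve separation, was at 0.39 (adjusted p = 0.285) with all hda9-1 arrays above all Col arrays. Their mean overlapped between genotypes (9.37 to 9.65 in Col, 9.34 to 9.57 in hda9-1). The mean of 4 measured seed coat markers of 15 was higher in hda9-1 (6.09 to 6.39) than in Col (5.63 to 5.91), with 1 of the 4 called, DELTA-VPE (1.45, limma adjusted p = 0.0496). Its lowest array was Col replicate 3 (5.20). The uncalled markers moved less, with ARA12 at 0.31, BAN at 0.10 and AT3G50990 at −0.11, so the higher mean came mostly from DELTA-VPE. AGL62, the 1 measured marker of 4 for the endosperm, was at 0.05, but it read 3.11 to 3.73, below the lower quartile of the arrays. The part of tissue composition in the pectin methylesterase values was not tested.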

How the data were processed

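RNA of 3 Col and 3 hda9-1 seed samples was hybridised to Affymetrix ATH1 arrays. The authors deposited log2 values per probe set, and RMA, affy and limma are named, without versions or settings, per the submitters' processing notes. RMA sets the distributions of arrays equal and compresses dim differences. Of 22810 probe sets, 64 controls were left out. Probe sets were named through the platform annotation, updated through Entrez identifiers to TAIR10.1, which served for names and gene order only. Of the rest, 13513 had 1 gene, 503 several and 8730 none listed. All 6 arrays entered 1 limma 3.58.1 fit (lmFit, eBayes without trend, R 4.3.3) with genotype as its term and no filter, which was tested on simulated data. Errors are limma's SE or the SD. The members, the lists and the rule for named genes were chosen with earlier results of these data known. That rule takes all members, each called gene of the pectin lists, up to 3 uncalled genes a list and the 3 most similar to AT3G60730. No polygalacturonase inhibitor was measured (0 of 2 listed). Replicate numbers 1 to 3 occur in both genotypes. Arrays of the same number deviated together from their genotype means (r = 0.34, 0.21 and 0.21, each over the limit of 0.1), so the numbers count as pairing the arrays, from the data and not from the labels, while the main fit has no block and blocked values stand beside the calls they change. Alternatives were the replicate block, trend with robust eBayes, median centring, cyclic loess, a filter on probe sets with a mean under 5, array weights, averaging the probe sets of a gene and leaving out each array.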

Additional observations from a re-analysis of the deposited data

How the results depend on the processing

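All alternatives were fixed with earlier results known. The number of fallen genes among the 8 pectin methylesterases was 4 as reported and 1 to 3 with 1 array left out, and AT3G60730 was called in every fit. It was 5 with the replicate block, with trend and robust eBayes and with array weights, where AT3G17060 passed too, and 3 after cyclic loess, where AT5G07420 did not (adjusted p = 0.0551). The filter on dim probe sets left 5 of the 8, of which 4 fell. These were 3 of the reported 4 and AT3G17060 (adjusted p = 0.0380), while AT5G07420 was removed by the filter. AT2G36710 turned positive with array weights (0.14) and without Col replicate 3 (0.26), its range with 1 array left out being −0.36 to 0.26, and the other 7 kept their sign throughout. Among the other pectin genes, 9 fell as reported and 0 to 7 did with 1 array left out, and 1 rose instead of 0 with the replicate block, trend and robust eBayes, cyclic loess or array weights, namely AT1G14890. Over all probe sets, 558 fell and 312 rose as reported. With array weights 873 fell and 623 rose, with the replicate block 828 fell and 625 rose, and with 1 array left out falls ranged from 69 to 452 and rises from 23 to 382. The block changed no call of the 8 other than AT3G17060. Leave-one-out fits have fewer arrays; the cause of the other differences was not tested. Arrays give no read depth, and with 3 per genotype the intervals of AT2G36710 (−0.72 to 0.55) and AT2G47550 stay wide.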
